A study of Mus musculus with 2 samples.

Results

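IgA plasma cells were analysed among CD45+ cells of the inflamed colonic lamina propria (LP). A droplet was first kept when it held at least 2000 unique molecular identifiers (UMIs), at least 500 genes and less than 5% mitochondrial UMIs, which left 13511 cells. A kept cell was called a plasma cell when it held at least 10 UMIs of Mzb1, Derl3, Txndc5 and Xbp1 together, at least 3% of its UMIs in heavy-chain constant genes, and no UMI of the macrophage gene Csf1r or the T cell gene Cd3e. It was an IgA plasma cell when Igha held more than 50% of its heavy-chain constant UMIs. Members were thus chosen by their counts of these genes, whose levels in the members are given as a description. The rule found 956 IgA plasma cells among 1037 plasma cells of all isotypes, 519 of 5851 kept cells in the WT-labelled library and 437 of 7660 in the Ring1aKO-labelled library. The other plasma cells were 73 IgG and 8 IgM cells.

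Both libraries came from C57BL/6 mice aged 8 to 10 weeks per the labels, and all mice drank 2.5% dextran sulfate sodium (DSS), a sulfated polysaccharide that injures the colonic epithelium, for 7 or 8 days. Cells of 5 WT mice and of 5 Ring1aKO mice were pooled by genotype, sorted as CD45+ 7-AAD- cells and made into 1 library each with 10× Genomics 3′ chemistry. Ring1aKO mice lack Ring1a (gene symbol Ring1) in the whole body, so cells other than plasma cells also carry the deletion. The comparison of the libraries addresses how loss of a polycomb protein bears on intestinal antibody-producing cells in colitis. There was no untreated library. With 1 pool per genotype, the genotype, the mice of the pool and the library cannot be told apart, so the libraries were not tested against each other. Paired values are given for WT first and Ring1aKO after it, and a number in brackets after a pair of gene levels is their log2 ratio, Ring1aKO over WT, except where IgA is compared with IgG plasma cells, for which it is the log2 fold change of IgA over IgG.

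Plasma cells are the antibody-secreting end stage of the B cell lineage. In the gut most of them carry IgA, which is joined into dimers by the J chain (Jchain), bound by an epithelial receptor and carried into the lumen, where it coats bacteria. To secrete antibody at this rate, a plasma cell fills its cytoplasm with endoplasmic reticulum (ER) and its messenger RNA with immunoglobulin transcripts, under the control of Xbp1, Prdm1 and Irf4. Each cell uses 1 heavy-chain and 1 light-chain variable (V) gene, which its descendants keep, so repeated use of the same pair of V genes is a trace of shared ancestry, although unrelated cells can also choose the same pair.

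The V gene sequences are shown because a single pair of them was seen in 79 IgA plasma cells of the WT-labelled library and is described further on. The light-chain gene Igkv6-20 lies at chr6:70335841-70336479 on the minus strand of GRCm38. Its nearest relative among annotated V genes of equal coding length, Igkv6-29, lies at chr6:70138462-70139082 on the same strand. Genes of other lengths were not compared. Over 347 coding bases the pair of genes differ at 5 bases (98.6% identity), which are in capitals. The last 200 coding bases are printed and hold all 5. In IgA plasma cells Igkv6-20 held 9978 UMIs in the WT-labelled library and 23 in the Ring1aKO-labelled one, and Igkv6-29 held 1 and 0, so cells could be assigned to the former only as far as the counting of the authors kept these near-identical genes apart.
Igkv6-20: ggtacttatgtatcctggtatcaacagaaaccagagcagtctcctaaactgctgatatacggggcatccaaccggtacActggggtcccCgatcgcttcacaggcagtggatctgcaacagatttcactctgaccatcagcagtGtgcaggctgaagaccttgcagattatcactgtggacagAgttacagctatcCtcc
Igkv6-29: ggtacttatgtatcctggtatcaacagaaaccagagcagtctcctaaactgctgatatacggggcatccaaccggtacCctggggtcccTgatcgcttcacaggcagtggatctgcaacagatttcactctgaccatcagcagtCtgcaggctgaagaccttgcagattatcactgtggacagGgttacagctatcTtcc
The heavy-chain gene Ighv6-6 lies at chr12:114434788-114435244 on the minus strand. It differs from its nearest relative of equal coding length, Ighv6-7, at 43 of 357 coding bases (88.0% identity), and capitals mark those among the last 200.
Ighv6-6: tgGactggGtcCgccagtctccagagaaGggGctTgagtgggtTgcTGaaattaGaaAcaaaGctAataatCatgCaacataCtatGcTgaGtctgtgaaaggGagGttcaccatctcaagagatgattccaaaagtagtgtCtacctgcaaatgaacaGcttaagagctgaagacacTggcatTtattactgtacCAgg

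Ring1, which encodes the deleted protein, lies at chr17:34020792-34024680 on the minus strand of GRCm38. Over all kept cells it had 825 UMIs in the WT-labelled library, 13.4 CPM (UMIs scaled to a total of 1000000; exact 95% Poisson interval 12.5 to 14.3), and 812 in the Ring1aKO-labelled library, 11.8 CPM (11.0 to 12.7). IgA plasma cells held 193 and 117 of these UMIs. Ring1 transcripts were therefore counted at similar levels in both libraries, so this count does not check the genotype, which was taken from the labels. Counts at the 3′ end say nothing of a disruption further upstream in the transcript, and the design of the deleted allele was not used here. All Poisson and Clopper-Pearson intervals given here are at 95% and cover counting error only.

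The label of the cells was checked on 6 markers, Igha, Jchain, Mzb1, Derl3, Xbp1 and Ccr10, of which 4 (Igha, Mzb1, Derl3 and Xbp1) had entered the rule. All 6 were detected in both libraries. In IgA plasma cells Jchain held 6.06% of the UMIs in the WT-labelled library and 6.04% in the Ring1aKO-labelled one, compared with 0.0467% and 0.0507% in B cells and 0.0393% and 0.0444% in T cells of the same libraries. Ccr10, the receptor for the mucosal chemokine CCL28 and the skin chemokine CCL27, had 2125 and 1995 UMIs in IgA plasma cells and 2 and 15 in B cells. At 2000 UMIs drawn from every cell, 24.9% and 20.1% of IgA plasma cells held a Ccr10 UMI, compared with 0.0584% and 0.250% of T cells (77.5% and 78.7% of IgA plasma cells at full depth).

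Of 11 barcodes shared by the kept cells of both libraries, 0 were IgA plasma cells. No doublet caller was run, and the rule itself removed 136 and 79 otherwise fitting barcodes with Csf1r and 72 and 95 with Cd3e, some of them with both. Markers of other cell types were summed over the IgA plasma cells. B cell markers reached 14.6 CPM in the WT-labelled library and 21.3 in the Ring1aKO-labelled one, T cell markers 15.2 and 15.2, macrophage markers 37.0 and 27.0 with Lyz2 the most abundant, and mast cell markers 3.01 and 4.97. Markers of NK cells and innate lymphoid cells reached 8.78 and 5.04, stromal markers 9.55 and 8.62, and red cell markers 5.45 and 7.80. The epithelial sum of 92.6 and 74.8 CPM was almost wholly Epcam, at 89.1 and 71.4, while Krt20 was at 0 in both libraries. Neutrophil markers (S100a8, S100a9, Csf3r and Retnlg) stood apart between the libraries, with 80.9 and 430.2 CPM, and 10 cells held 69.5% and 89.3% of these UMIs.

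Few cells lay close to the limits on the Igha and heavy-chain shares. The limit on the plasma cell genes left out unlike numbers of barcodes in the libraries. The lowest Igha share of heavy-chain constant UMIs in a member was 51.1% in the WT-labelled library and 52.1% in the Ring1aKO-labelled one, the highest share in a plasma cell outside the class was 35.2% and 38.1%, and the median member had 99.9% in both. Only 6 and 9 members were under 90%. The lowest heavy-chain share of all UMIs in a member was 3.36% and 3.31%, against medians of 16.8% and 18.6%. Outside this limit were 58 and 43 barcodes that met every other condition, with shares of up to 2.97% and 2.83%, of which only 3 and 4 reached 1%. The median share of these barcodes was 0.237% and 0.361%, and 43.1% and 72.1% of them held at least 3 UMIs of B cell markers. A further 8 and 47 barcodes were outside only for having fewer than 10 UMIs of the plasma cell genes, and these were shallow, with median totals of 3827 and 2560 UMIs.

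IgA plasma cells made up a smaller share of the Ring1aKO-labelled library, and how much smaller depended on the denominator. They were 8.87% of kept cells in the WT-labelled library (exact Clopper-Pearson interval 8.15 to 9.63) and 5.70% in the Ring1aKO-labelled one (5.20 to 6.25), a log2 ratio of -0.64 (-0.81 to -0.46). Of plasma cells and B cells together they were 32.5% (30.2 to 34.8) and 12.4% (11.3 to 13.5), which is -1.39 on the log2 scale (-1.55 to -1.23). The denominator carried much of the latter difference, since B cells numbered 1050 in the WT-labelled library and 3041 in the Ring1aKO-labelled one. With B cells and other plasma cells left out of the denominator, the shares were 10.9% and 9.57%, a log2 ratio of -0.19 (-0.36 to -0.01). The sort for CD45 and the pooling of mice set these shares as well as the tissue does, and the numbers per colon are not known.

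Among plasma cells, IgA was the isotype of 94.5% (92.3 to 96.3) in the WT-labelled library and of 89.5% (86.5 to 92.1) in the Ring1aKO-labelled one, a log2 ratio of -0.08 (-0.13 to -0.03). IgG plasma cells were 26 and 47 cells, 4.74% and 9.63% of plasma cells, a log2 ratio of 1.02 (0.36 to 1.69). Of all kept cells, IgG plasma cells were 0.444% and 0.614%, a log2 ratio of 0.47 whose interval held 0 (-0.22 to 1.15).

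The median IgA plasma cell of the Ring1aKO-labelled library held more immunoglobulin RNA, while the rest of its RNA was of like size. Members had a median of 27378 UMIs in the WT-labelled library (5th to 95th percentile 13342 to 54359) and 35593 in the Ring1aKO-labelled one (7866 to 71012). The median cell held 15971 and 24443 UMIs of immunoglobulin genes (Jchain included), and 10787 and 10679 UMIs of all other genes. Immunoglobulin genes took 58.5% of the summed UMIs of these cells in the WT-labelled library and 67.4% in the Ring1aKO-labelled one. In IgG plasma cells the share was 51.1% in both libraries, and in B cells it was 1.35% and 1.60%. The spread over cells was wider in the Ring1aKO-labelled library, where 36 members had fewer than 10000 UMIs, against 10 in the WT-labelled one.

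**Figure D1:**
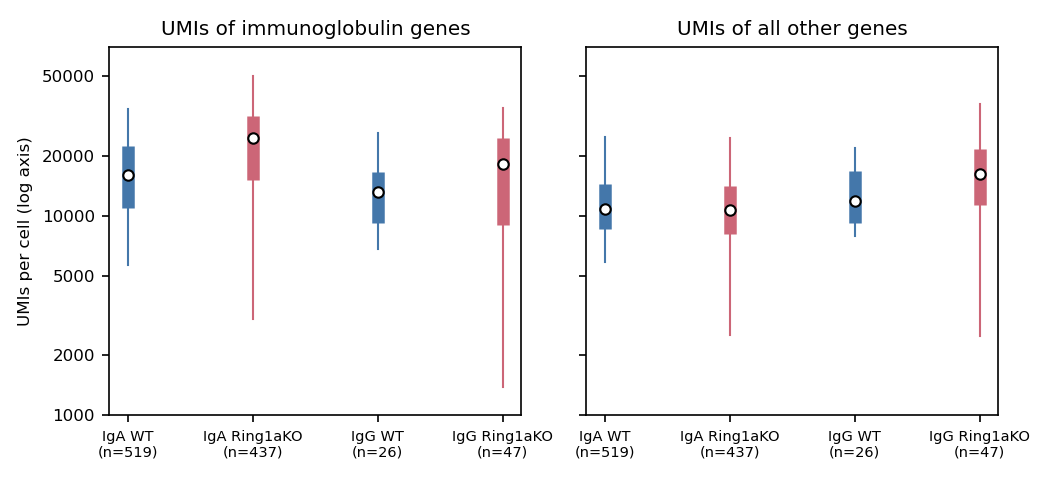
UMIs per cell (log axis) of immunoglobulin genes (left) and of all other genes (right) in IgA and IgG plasma cells of each library, where the circle is the median, the box spans the 25th to 75th percentile and the line the 5th to 95th. The IgA medians for immunoglobulin genes are 15971 and 24443, and those for other genes 10787 and 10679.

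Igha, the constant gene of the IgA heavy chain at chr12:113254830-113260236 on the minus strand of GRCm38, held 16.1% of the UMIs of IgA plasma cells in the WT-labelled library and 18.5% in the Ring1aKO-labelled one, a log2 ratio of 0.20, and the median cell had 4549 and 6440 Igha UMIs. Igha chose the members, so its height in them is no finding. Igkc, the kappa constant gene, held 32.2% and 38.3%, the lambda constant genes together 3.44% and 4.13%, and Jchain 6.06% and 6.04%. Igha was also found in cells that make little or none of it, at 0.227% and 0.265% of UMIs in B cells and at 0.209% and 0.241% in T cells. Barcodes with fewer than 100 UMIs, which hold cell-free RNA, had 6.95% of their UMIs in Igha in the WT-labelled library and 5.84% in the Ring1aKO-labelled one. The IgG cells held 0.927% and 0.411%.

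IgG transcripts within IgA plasma cells came mostly from few cells, though not for each IgG gene. The 4 IgG constant genes together held 0.160% of their UMIs in the WT-labelled library and 0.271% in the Ring1aKO-labelled one, and Ighm 0.0135% and 0.0127%. In 5 and 9 members, IgG genes held more than 10% of the heavy-chain UMIs, and these cells carried 79.4% and 87.5% of all IgG UMIs. They were large barcodes, with medians of 66498 and 71056 UMIs, and 4 and 5 of them also held markers of another cell type. With them Ighg1 was at 673 CPM in the WT-labelled library and 1883 in the Ring1aKO-labelled one, and without them at 51.5 and 139. Ighg2b was at 246 and 773 CPM with them and at 188 and 158 without them. Ighg2c was at 359 and 53.4 CPM with them and at 74.8 and 52.2 without them, and Ighg3 at 325 and 3.27 with them and at 22.1 and 3.41 without them. After thinning to 2000 UMIs per cell, 10.4% and 26.1% of IgA plasma cells held an Ighg1 UMI, against 9.81% and 28.4% of B cells and 11.6% and 28.8% of T cells. Before thinning, the shares were 60.1% and 92.2% of IgA plasma cells, 22.5% and 52.5% of B cells and 28.1% and 60.6% of T cells. Whether these UMIs came from cell-free RNA was not tested.

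Most IgA plasma cells used a kappa light chain. A lambda chain was dominant in 48 cells of the WT-labelled library (9.25%, 6.90 to 12.1) and in 32 of the Ring1aKO-labelled one (7.32%, 5.06 to 10.2), shares whose intervals overlap. The constant gene used by the lambda cells differed in a way that the shares did not show. In the WT-labelled library, 19 cells used Iglc1, 14 Iglc2 and 15 Iglc3. In the Ring1aKO-labelled one, all 32 used Iglc1 and 0 of 32 used Iglc2 or Iglc3, which allows a share of up to 9.38% for each when a count of 0 is taken to allow 3 counts. Iglc2 and Iglc3 are near-identical genes, so the split between them is uncertain, while their sum is not affected by it.

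The levels followed the cells. Iglc1 had 16669 CPM in IgA plasma cells labelled WT and 38472 in those labelled Ring1aKO, Iglc2 8347 and 2148, and Iglc3 9420 and 635. In B cells of the same libraries the log2 ratio was -0.08 for Iglc2 and -0.28 for Iglc3 on the scale of UMIs outside immunoglobulin genes. Few V genes stood behind these cells. In the WT-labelled library all 19 Iglc1 cells carried Iglv1, and Ighv10-1 was the heavy-chain gene in 10 of 18 with a call. All 15 Iglc3 cells also carried Iglv1, and 8 of 15 carried Ighv7-3, which was also found in 6 of 13 Iglc2 cells. In the Ring1aKO-labelled library, 29 of 32 Iglc1 cells had an Iglv call, which was Iglv1 in each, and Ighv1-12 was the heavy-chain gene in 12 of 23. Cells with the same V genes can be relatives, so the cell numbers are not independent draws.

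V genes could be read in most cells, but those of the kappa and heavy chains at lower depth in the Ring1aKO-labelled library. In IgA plasma cells, kappa V genes held 0.227% of the UMIs in the WT-labelled library and 0.0542% in the Ring1aKO-labelled one, a log2 ratio of -2.06, with median counts of 50 and 15 per cell. Heavy-chain V genes held 0.122% and 0.0298%, a log2 ratio of -2.03, with medians of 26 and 7. V genes also took smaller shares in IgG plasma cells labelled Ring1aKO, with log2 ratios for the kappa and heavy-chain genes of -2.0 and -3.29, and in B cells, with -1.46 and -2.09. Lambda V genes did not share this gap. They held 0.147% and 0.108% of the UMIs of IgA plasma cells, a log2 ratio of -0.45, with medians of 22 in both libraries, and had ratios of 0.89 in IgG plasma cells and 0.77 in B cells.

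A V gene was called in a cell that had at least 5 UMIs of that family and more than 50% of them in 1 gene. Both chains were called in 430 IgA plasma cells labelled WT and in 245 labelled Ring1aKO, with 160 and 126 different pairs, of which 101 and 81 were seen in 1 cell. The pair Igkv6-20 with Ighv6-6 was found in 79 of 430 cells labelled WT (18.4%, 14.8 to 22.4). It was followed by Igkv1-117 with Ighv1-81 in 23 cells, Igkv1-110 with Ighv1-81 in 22, Igkv5-39 with Ighv1-76 in 14 and Igkv4-59 with Ighv10-3 in 11. In the Ring1aKO-labelled library the most frequent pair was Igkv4-70 with Ighv6-6, in 14 of 245 cells (5.71%, 3.16 to 9.40), then Igkv2-112 with Ighv1-15 in 12, Igkv6-23 with Ighv1-59 in 10, Igkv6-23 with Ighv1-9 in 8 and Igkv15-103 with Ighv1-26 in 6. The 5 most frequent pairs held 34.7% and 20.4% of the cells with both calls. The inverse Simpson index, the number of equally frequent pairs that would give the same evenness, was 21.8 and 61.3, and 11.1 and 23.2 among the 250 and 37 cells with at least 20 UMIs of each family, where the top 5 pairs took 43.6% and 32.4%.

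**Figure D2:**
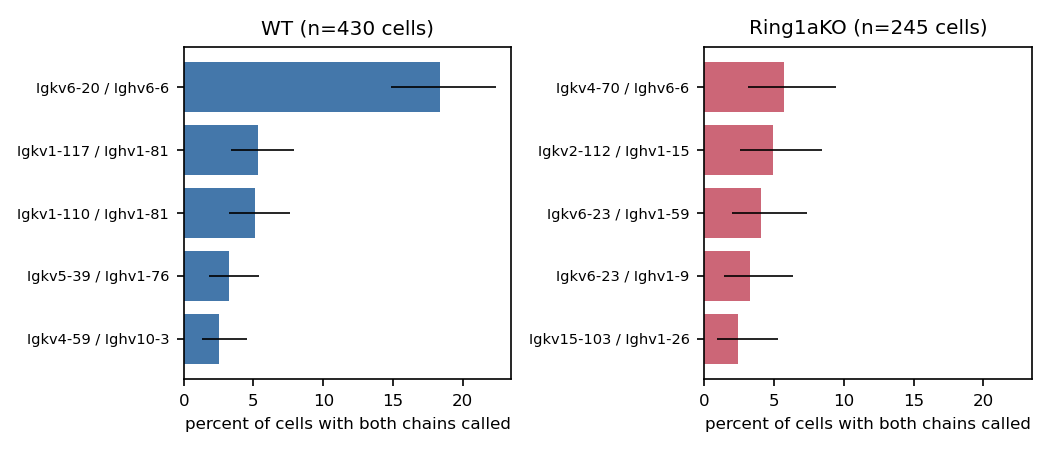
Share of IgA plasma cells with both chains called that used each of the 5 most frequent pairs of V genes in the WT-labelled library (left) and in the Ring1aKO-labelled one (right), where lines are exact 95% Clopper-Pearson intervals. Igkv6-20 with Ighv6-6 holds 18.4% on the left, and the most frequent pair on the right holds 5.71%.

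The pair Igkv6-20 with Ighv6-6 was also the most frequent at other depths of V genes. With at least 20 UMIs of each family it was found in 70 of 250 cells labelled WT (28.0%), and with the V gene counts of the cells labelled WT thinned to the level of the other library in 64 of 245 (26.1%, 20.7 to 32.1). These 245 thinned cells held 103 different pairs, against 126 in the same number of cells labelled Ring1aKO, where at 20 UMIs the most frequent pair, Igkv1-135 with Ighv7-3, was found in 4 of 37 cells. Single V genes showed the same picture. Igkv6-20 was called in 88 of 457 cells labelled WT (19.3%) and in 1 of 331 labelled Ring1aKO (0.302%), and Ighv6-6 in 84 of 480 and 15 of 291. Of the other V genes called most often, Igkv6-23 was called in 1.97% and 8.46% of cells and Ighv1-81 in 11.5% and 4.81%, with intervals that did not overlap. At 20 UMIs both pairs of intervals overlapped, while those of Igkv10-96 did not, at 8.74% (6.13 to 12.0) and 1.86% (0.386 to 5.35). At 5 UMIs the intervals of the others overlapped, from Igkv1-110 at 10.9% and 9.97% and Ighv3-6 at 3.96% and 3.78% to Igkv1-117 at 9.63% and 6.95%, Igkv10-96 at 7.88% and 3.93%, Ighv7-3 at 7.92% and 4.12% and Ighv1-76 at 7.71% and 3.09%. The V genes compared singly were ranked by the cells of both libraries together, and more of the called cells were labelled WT. Others outside this ranking also had intervals that did not overlap. Ighv1-15 was called in 0 of 480 and 20 of 291 cells and Igkv4-70 in 0 of 457 and 18 of 331. In the other direction, Ighv10-1 was called in 16 of 480 and 0 of 291. Each library pooled 5 mice, and the cells were not assigned to mice, so how many mice carried a pair is not known.

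The 79 cells with Igkv6-20 and Ighv6-6 were compared, as a description of 1 library, with the 351 other cells labelled WT with both calls. Their median total was 36081 UMIs against 26814. As CPM of UMIs outside immunoglobulin genes, Hspa5 was at 1272 against 2470 and Hsp90b1, another ER chaperone, at 5034 against 7041. Mzb1, a chaperone for immunoglobulin assembly, was at 3275 against 5024, and Xbp1 at 4907 against 3684. The surface receptors Ctla4 and Ccr10 were at 189 against 382 and at 245 against 368. Epcam was at 328 against 202.

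Because immunoglobulin genes took a larger part of the UMIs in the Ring1aKO-labelled library, most other genes appeared lower there when scaled to all UMIs. Of 7634 genes with 100 UMIs or more in the libraries together, 53 had a log2 ratio of at least 1 (0.694%) and 654 of -1 or less (8.57%), and the median log2 ratio was -0.38. Scaled to UMIs outside immunoglobulin genes, which is the scale of all gene levels from here on, the median of 7533 genes was -0.03, with 75 genes (0.996%) at or above 1 and 141 (1.87%) at or below -1. Counting error alone is a lax limit at this depth, since the interval of the ratio was above 0 for 18.2% of the genes and below 0 for 25.3%. The same median was 0.07 in IgG plasma cells, -0.16 in B cells and -0.05 in T cells. These shares are the background for the gene groups that follow.

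The 10 genes with the highest and the 10 with the lowest ratios were taken among 559 genes with at least 100 CPM of all UMIs in either library. Their ratios mostly had the same sign in other cells. Of the 10 that were higher in IgA plasma cells labelled Ring1aKO, 10 had ratios above 0 in IgG plasma cells, 9 in B cells and 7 in T cells. These counts go by sign alone and include ratios whose interval held 0, such as H2-Ab1 in IgG plasma cells (0.17, -0.07 to 0.42). The share of all genes with the same sign in these classes was not counted. All 10 that were lower had ratios below 0 in IgG plasma cells, B cells and T cells too, although that of H1f0 in T cells was close to the median of all genes. For a direction shared by these cell types, genotype and library preparation cannot be told apart.

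Slpi encodes a secreted inhibitor of neutrophil proteases that protects mucosal surfaces and lies at chr2:164354070-164389095 on the minus strand of GRCm38. In IgA plasma cells it had 2750 CPM in the WT-labelled library and 5020 in the Ring1aKO-labelled one, a log2 ratio of 0.87. In IgG plasma cells it had 2522 and 15473, a log2 ratio of 2.62, and in B cells the ratio was -0.54. After thinning, 50.7% and 61.6% of IgA plasma cells held a Slpi UMI, against 4.0% and 5.76% of B cells and 5.37% and 6.25% of T cells, and 81.3% and 89.0% of IgA plasma cells did at full depth. Plasma cells of both classes thus held Slpi far above the level of B and T cells in the same library.

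Tmem176a and Tmem176b, a pair of neighbouring genes for membrane channels, were at 1281 and 1371 CPM in IgA plasma cells labelled WT and at 2238 and 2531 in those labelled Ring1aKO, log2 ratios of 0.81 and 0.88. In B cells Tmem176a had 92 and 273 UMIs and Tmem176b 106 and 312, with intervals of the ratio that held 0. Prg2, best known as the major basic protein of eosinophil granules, was at 187 and 312 CPM (0.74), with UMIs in 70.3% and 78.5% of members and 3 and 19 UMIs in all B cells together. Ucp2, an uncoupling protein of the mitochondrial membrane, was at 226 and 371 (0.71). The unnamed gene model Gm49980 was at 105 and 312 (1.57), with ratios of 1.10 in B cells and 0.83 in T cells.

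S100a8 and S100a9, the calprotectin genes of neutrophils, had the highest ratios but rested on few cells. S100a8 was at 69.5 CPM in the WT-labelled library and 470 in the Ring1aKO-labelled one (2.75), and S100a9 at 115 and 732 (2.67). Of the S100a9 UMIs, 10 cells held 69.3% in the WT-labelled library and 88.6% in the Ring1aKO-labelled one, and 1 cell held 64.7% and 39.3%. When thinned, 4.05% and 6.86% of IgA plasma cells had an S100a9 UMI, below the 7.90% and 10.7% of B cells. When members with at least 3 UMIs of the markers of another cell type were left out, 106 and 177 cells, the log2 ratios as CPM of all UMIs went from 2.41 to 0.17 for S100a8 and from 2.32 to 0.36 for S100a9. That filter uses these very genes.

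Among the 10 lowest ratios, H1f4, a linker histone gene, was at 352 CPM in the WT-labelled library and 59.7 in the Ring1aKO-labelled one (-2.55), and it was also lower in B cells (-2.17) and T cells (-2.11). Ahnak, a giant scaffold protein, was at 554 and 238 (-1.22), against -1.37 in B cells and -1.20 in T cells. The mitochondrial genes mt-Nd4l and mt-Nd5 had ratios of -1.22 and -0.86, and Tpr, a protein of the nuclear pore, -0.82. H1f0, the linker histone of resting cells, was at 308 and 168 (-0.87), with -1.49 in B cells and -0.09 in T cells.

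Within the machinery of secretion, the abundant ER chaperones Hsp90b1 and Hspa5 were lower in IgA plasma cells labelled Ring1aKO, while other genes of the ER lists lay in both directions. Chaperones and folding enzymes had 12 of 23 genes with intervals below 0 and 9 above, and a median log2 ratio of -0.07, near the -0.03 of all genes, and 0 genes were past 1 in either direction. Hsp90b1, the ER form of HSP90, was at 7446 CPM in the WT-labelled library and 4025 in the Ring1aKO-labelled one (-0.89, -0.91 to -0.86). Hspa5, the chaperone BiP that holds unfolded chains, was at 2695 and 1577 (-0.77, -0.81 to -0.73). The disulfide isomerase Pdia3 was at 418 and 216 (-0.95), the lectin chaperone Canx at 360 and 230 (-0.65) and Hyou1 at 205 and 140 (-0.55). Hspa5 had ratios of -0.22 in IgG plasma cells, -0.47 in B cells and -0.29 in T cells, and Hsp90b1 of -0.21, -0.40 and -0.18, so both were lower in all 4 cell types and lowest in IgA plasma cells. Whether the difference between cell types is larger than that between animals was not tested.

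Other members of the same list were higher. Txndc5, an isomerase that entered the rule, was at 2329 and 3112 CPM (0.42), the co-chaperone Dnajb9 at 223 and 319 (0.52) and Sdf2l1 at 673 and 875 (0.38). Calr, the soluble partner of Canx, was at 1250 and 1243 (-0.01, -0.06 to 0.04), and Mzb1 at 5005 and 4779 (-0.07). In the list for ER-associated degradation and ER stress, 7 of 18 genes had intervals above 0 and 6 below, with a median of 0.01. Herpud1, which joins the retrotranslocation complex, was at 935 and 1505 (0.69), Derl3, a channel subunit that entered the rule, at 663 and 997 (0.59, 0.53 to 0.65), and the mannosidase-like Edem2 at 672 and 976 (0.54). Edem3 went the other way, at 103 and 60.5 (-0.77), and Sel1l, the scaffold of the ligase Syvn1, was at 480 and 376 (-0.35).

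Genes for entry into the ER and for transport out of it differed little. In translocation and signal peptidase, 8 of 17 intervals were above 0 and 6 below (median 0.04), from Sec63 (-0.46), which helps to pull chains into the ER, to Ssr4 (0.33), at 3124 and 3936 CPM. In ER to Golgi transport, 7 of 16 were above 0 and 2 below (median 0.08), with Kdelr2, a receptor that returns ER proteins, at 235 and 322 (0.45) and the golgin Golgb1 at 132 and 91.0 (-0.53). None of these genes was past a log2 ratio of 1.

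The chaperone genes are classical targets of Atf6, which binds the ER stress response element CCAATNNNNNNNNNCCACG together with the factor NF-Y. Both strands were searched for these 19 letters in the 250 bases before each gene start in RefSeq's promoter sequences for GRCm38, a window in which 37 of 32851 promoters held them (0.113%). Of the chaperones and folding enzymes, 8 of 20 with a sequence held the motif (40.0%), of the degradation list 2 of 18 (11.1%), and of the translocation and ER to Golgi lists 0 of 12 each. Stretches of genes with high and low ratios are given with the motif in capitals and 5 bases to each side, read along the strand of the gene. In Derl3 and in the second stretch of Hsp90b1 the motif is on the opposite strand and reads as its reverse complement.
Hspa5, chr2:34772020-34772048, plus strand: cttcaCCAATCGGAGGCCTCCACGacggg
Hsp90b1, chr10:86705633-86705661, minus strand: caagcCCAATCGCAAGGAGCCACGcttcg
Hsp90b1, chr10:86705528-86705556, minus strand: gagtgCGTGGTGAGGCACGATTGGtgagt
Canx, chr11:50325795-50325823, minus strand: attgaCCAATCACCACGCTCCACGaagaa
Dnajc3, chr14:118937822-118937850, plus strand: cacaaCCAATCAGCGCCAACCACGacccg
Derl3, chr10:75893237-75893265, plus strand: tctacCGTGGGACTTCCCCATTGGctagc
Genes with the motif lay in both directions. The 10 genes with the motif ranged from -0.89 (Hsp90b1) to 0.59 (Derl3), with a median log2 ratio of -0.12, 2 intervals above 0 and 5 below. The 51 genes of the 4 lists whose promoter was searched and did not hold it had a median of 0.08, with 24 intervals above 0 and 16 below, and a further 13 genes had no promoter sequence. Dnajc3, with the motif, was at 744 and 828 CPM (0.15), and Pdia3, without it, had the lowest ratio of the 4 lists. A match of letters is a description of the sequence, and binding was not measured.

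Of 9 transcription factors of the plasma cell programme, 6 had intervals below 0 and 2 above, with a median log2 ratio of -0.20. Xbp1, the driver of ER growth, was at 3835 CPM in the WT-labelled library and 3451 in the Ring1aKO-labelled one (-0.15). Prdm1, which encodes Blimp-1, was at 221 and 182 (-0.28), and Irf4 at 209 and 181 (-0.20). Ell2, an elongation factor that favours the secreted form of the heavy chain, was at 488 and 287 (-0.77), and Atf6 at 293 and 182 (-0.69). Atf4 was at 635 and 723 (0.19). Ell2 and Atf6 were also lower in IgG plasma cells (-1.07 and -1.06) and in B cells (-0.93 and -0.80). Of 11 B cell factors, 5 had 100 UMIs, with Pou2af1, the coactivator OBF-1, at 511 and 619.5 (0.28), and Pax5 had only 28 and 43 UMIs.

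Survival genes had a median ratio near that of all genes, and homing genes lay on both sides of 0. Of 13 survival and apoptosis genes, 5 had intervals above 0 and 1 below (median 0.06). Tnfrsf17, the receptor BCMA for the survival factor APRIL, was at 251 and 285 CPM (0.18), and Tnfrsf13b, the receptor TACI, at 391 and 305 (-0.36). The costimulatory receptor Cd28 was at 319 and 349 (0.13), with UMIs in 22% and 23.6% of thinned members against 0.762% and 0.954% of B cells. Mcl1, the survival factor on which plasma cells rely, was at 868 and 838 (-0.05).

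Of 12 homing and adhesion genes with 100 UMIs, 7 had intervals above 0 and 4 below (median 0.19). Ccr10 was at 328 and 385 CPM (0.23, 0.14 to 0.32). Itga4, the integrin chain that pairs with Itgb7 for entry into the gut, was at 331 and 173 (-0.93), as in B cells (-1.01) and T cells (-0.93), and Itgb7 itself at 117 and 133 (0.18). Itgb1 was at 69.2 and 37.7 (-0.87). Cxcr4, a receptor for bone marrow homing, was at 69.8 and 131 (0.91). Ccr7, a receptor of lymph node entry, was the only gene of the list past 1, with 98 and 367 UMIs (2.22, 1.90 to 2.56) in 62 and 124 cells.

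Genes of antigen presentation were higher in IgA plasma cells labelled Ring1aKO. Of 11 genes of the B cell surface and of antigen presentation, 9 had intervals above 0 and 1 below, with a median log2 ratio of 0.55. Cd74, the invariant chain, was at 5758 and 7693 CPM (0.42), and the MHC class II genes H2-Aa, H2-Ab1 and H2-Eb1 were at 214 and 476 (1.16), 438 and 752 (0.78) and 320 and 516 (0.69). Cd79a, the signalling chain of the B cell receptor, was at 960 and 1409 (0.55), and Ptprc, which encodes CD45, at 214 and 149 (-0.53). The median of the same list was lower in IgG plasma cells, at 0.13 over 7 genes, and in B cells, at 0.11 over 14 genes. T cells, which do not make class II in the mouse, had the list at a median of 1.16 over 8 genes, with H2-Aa at 1.5. As CPM of all UMIs, cell-free barcodes held 1652 and 2408 of H2-Aa. At 2000 UMIs per cell, 11.9% and 21.7% of IgA plasma cells and 8.17% and 16% of T cells held an H2-Aa UMI (63.2% and 84.2%, and 25.2% and 39.4%, at full depth). The H2-Aa shares were thus higher in the Ring1aKO-labelled library in both cell types, and the part of cell-free RNA in this was not tested. As CPM of all UMIs, the log2 ratio of H2-Aa of 0.81 went to 0.29 without members that held markers of other cell types. It went the other way, to 2.51, when the cell-free profile was subtracted at 5% of the UMIs, which left 93.8 of 1383 and 550.0 of 2463 UMIs of H2-Aa.

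MHC class I genes were mostly slightly lower, with 2 of 10 intervals above 0 and 6 below (median -0.09), B2m at 5817 and 6380 CPM (0.13) and H2-Q7 at 391 and 334 (-0.22). On the plasma cell surface, 3 of 14 intervals were above 0 and 2 below (median 0.07). Sdc1, the plasma cell antigen CD138, was at 521 and 521 (0.00), Slamf7 at 297 and 295 (-0.01) and Ly6c2 at 6451 and 5584 (-0.21). Epcam, an adhesion molecule of epithelial cells, was at 215 and 219 (0.03). At 2000 UMIs per cell it was found in 13.5% and 10.8% of IgA plasma cells, against 1.52% and 2.53% of B cells and 3.68% and 5.69% of T cells (77.8% and 73.2% of IgA plasma cells at full depth), while the keratins Krt8 and Krt18 had 22 and 22 and 32 and 31 UMIs and Krt20 had 0 in both libraries.

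Effector molecules ascribed to IgA plasma cells were mostly rare. Nos2, the inducible nitric oxide synthase, had 2 and 1 UMIs in all members, and Tnf 24 and 31. The cytokine gene Il10 had 232 and 235 UMIs, 35.8 and 45.4 CPM (0.34, 0.07 to 0.61), and Ebi3, a subunit of IL-35 and IL-27, was at 75 and 35 UMIs. Of 8 genes of this list with 100 UMIs, 7 had intervals above 0 and 1 below, and 3 were past 1. Only 2 genes of the list had 100 UMIs with the cell-free profile subtracted at 5%. Without members that held markers of other cell types, 5 did. Ccl5, a chemokine, was at 55.4 and 154 CPM (1.47), with 10 cells holding 42.6% and 64.2% of its UMIs. Gzmb, a granule protease of cytotoxic cells, had 28 and 141 UMIs, of which 10 cells held 42.9% and 70.2%. Csf2 was lower, with 68 and 17 UMIs in only 7 and 5 cells. The checkpoint receptor Ctla4 was added to these genes after its values were seen, and it had 335 and 500 CPM (0.58), in 23.9% and 26.3% of thinned members, against 3.24% and 4.05% of B cells and 44% and 44.9% of T cells.

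Genes of the interferon response were lower in IgA plasma cells labelled Ring1aKO, and in B cells and T cells. Of 21 genes with 100 UMIs, 15 had intervals below 0 and 1 above, 4 were at or below -1, and the median log2 ratio was -0.51. The median was -0.40 in IgG plasma cells, -1.30 in B cells and -0.59 in T cells. Irf1, an interferon regulatory factor, was at 193 CPM in the WT-labelled library and 107 in the Ring1aKO-labelled one (-0.85). The guanylate-binding proteins Gbp4 and Gbp7 were at 67.5 and 22.6 (-1.57) and at 39.2 and 16.8 (-1.21). Ifi27l2a was at 814 and 319 (-1.35), and after thinning it was found in 34.7% and 12.4% of IgA plasma cells, 38.3% and 25.5% of B cells and 46.0% and 33.4% of T cells. Cell-free RNA was lower for these genes too. As CPM of all UMIs, cell-free barcodes held 226 and 106 of Irf1, 104 and 28.3 of Gbp4, 37.6 and 16.7 of Gbp7 and 723 and 269 of Ifi27l2a, against 80.1 and 34.9, 28.0 and 7.36, 16.3 and 5.48, and 338 and 104 in IgA plasma cells. Relative to the median of all genes, the list was at -0.48, and at -0.36 with the cell-free profile subtracted at 5%. Irf7 was the gene whose interval lay above 0, at 23.8 and 31.5 (0.40), and Psmb8 of the immunoproteasome was at 535 and 533 (-0.01).

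**Figure D3:**
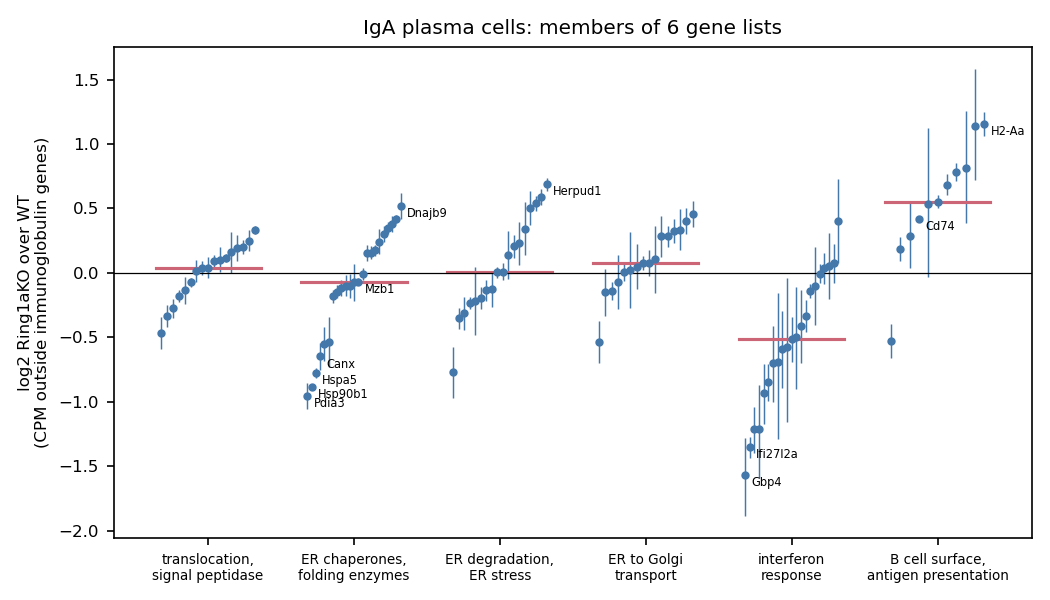
Log2 ratio of the Ring1aKO-labelled library over the WT-labelled one in IgA plasma cells, as CPM of UMIs outside immunoglobulin genes, for each gene with at least 100 UMIs of 6 lists, where points are genes with exact 95% intervals of counting error and red bars are the medians of the lists. The interferon response lies lowest with a median of -0.51 and the B cell surface and antigen presentation list highest with 0.55, while the lists of the secretory pathway lie around 0.

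Dividing cells were few in both libraries. Of 16 cell cycle genes, 6 had intervals below 0 and 0 above, with a median log2 ratio of -0.14. Mki67, the proliferation antigen Ki-67, was at 126 and 39.0 CPM (-1.68), and Top2a, the topoisomerase of dividing cells, at 62.1 and 26.9 (-1.20). Pcna, a replication clamp, was at 107 and 99.5 (-0.10). With at least 10 UMIs of the list as the limit, 40 members labelled WT (7.71%, 5.56 to 10.3) and 20 labelled Ring1aKO (4.58%, 2.82 to 6.98) were cycling, and 17 and 9 members lay close to it, with 8 to 12 UMIs. The intervals of these shares overlap.

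Polycomb genes were low in abundance throughout. Ring1 was at 29.8 and 22.6 CPM (-0.39, -0.74 to -0.06) in IgA plasma cells and its paralogue Rnf2, which encodes Ring1b, at 17.1 and 20.7 (0.27, -0.13 to 0.67). Of 19 genes with 100 UMIs, 4 had intervals above 0 and 7 below (median -0.21). Suz12 of the PRC2 complex was at 81.1 and 46.6 (-0.80), Ezh2, its methyltransferase, at 31.5 and 23 (-0.45), and the chromobox gene Cbx7 at 61.8 and 72.8 (0.24).

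Among 14 genes of the immediate-early response, which also rises during tissue digestion, 7 had intervals above 0 and 5 below (median 0.10). Fos was at 2229 and 2197 CPM (-0.02), Junb at 741 and 1012 (0.45) and Nr4a1 at 79.8 and 152 (0.93). Of 12 protein genes of the mitochondrial genome, 7 were above 0 and 4 below (median 0.06), with mt-Co1 at 8024 and 8282 (0.05) and mt-Atp8 at 72.3 and 32.5 (-1.15).

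Some genes were carried by a minority of the IgA plasma cells of both libraries. Over 431 genes, the 10% of members with most of a gene held a median of 24.6% of its level in the WT-labelled library and 26.0% in the Ring1aKO-labelled one, where each cell's level was its share of UMIs. Cxcl10, a chemokine induced by interferon, was the most uneven, with 71.4% and 74.0%. The metallothionein gene Mt2 had 57.6% and 64.3%, the heat shock genes Dnajb1 and Hspa1a 56.1% and 57.0% and 53.9% and 56.5%, Ifi27l2a 50.3% and 63.3% and Slpi 52.6% and 49.6%. They were chosen by the lower of the shares in the libraries, so that they were uneven in both is no finding.

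IgA and IgG plasma cells were compared within the libraries, over 4 sums of UMIs with the library as a covariate (edgeR quasi-likelihood test with Benjamini-Hochberg adjustment). The heavy-chain genes had chosen both classes and were not tested, and the classes share the free RNA of their library. Of 10120 genes outside immunoglobulin genes, 11 were higher in IgA plasma cells (0.109%) and 7 lower (0.0692%) at an adjusted p under 0.05. A further 18 immunoglobulin genes were called. The fit has 1 residual degree of freedom and the IgG class holds 26 and 47 cells, and the count depended on the settings, from 1 gene without the library term to 336 with cells of at least 90% of 1 isotype. In simulated data with 4 such sums, 126 of 193 genes with a 4-fold change were found (65.3%), with 8 false calls. The simulation gave both libraries the same profile and all genes 1 dispersion, so these rates need not hold for the real libraries.

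By the rule for named genes, 3 genes were higher in IgA plasma cells. Ccr10 was at 328 and 385 CPM in IgA plasma cells, for the WT-labelled library and the Ring1aKO-labelled one, and at 145 and 110 in IgG plasma cells (log2 fold change 1.48 ± 0.23 SE, edgeR adjusted p = 0.0406). Dusp5, a phosphatase that stops ERK signals, was at 254 and 306 against 99.7 and 90.1 (1.54 ± 0.22, edgeR adjusted p = 0.0316). Rgcc, a regulator of cell cycle kinases, was at 280 and 459 against 123 and 142 (1.43 ± 0.22, edgeR adjusted p = 0.0406). The pair named as lower was Cd24a, a surface glycoprotein of early B cells, at 262 and 298 against 621 and 779 (-1.35 ± 0.21, edgeR adjusted p = 0.0409), and Pon3, a lactonase, at 80.2 and 108 against 285 and 223 (-1.46 ± 0.23, edgeR adjusted p = 0.0450). In each of these genes the IgA and IgG values did not overlap between the libraries. The genes were chosen on these same sums, so this is no further finding. Without the library term, none of the 5 passed, with adjusted p from 0.269 to 0.413 and log2 fold changes of 1.54 for Dusp5, 1.47 for Ccr10, 1.44 for Rgcc, -1.36 for Cd24a and -1.45 for Pon3. With TMM scaling on genes outside immunoglobulin genes, Dusp5 passed (edgeR adjusted p = 0.0398), Ccr10, Rgcc and Cd24a were at an edgeR adjusted p of 0.0502 and Pon3 at 0.0566.

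The other 13 called genes did not reach the level set by the rule, which is the mean of the libraries as CPM of all UMIs in either class, and are named because they were called. Tnfrsf17 was at 251 and 285 CPM in IgA plasma cells against 65.5 and 34.3 in IgG plasma cells (log2 fold change 2.5, edgeR adjusted p = 0.0114). Serpina3f, a protease inhibitor, was at 128 and 117 against 5.70 and 3.81 (4.72, edgeR adjusted p = 0.0034), and was found in 121 and 104 IgA plasma cells. Atp1b1, a subunit of the sodium pump, was at 238 and 185 against 31.3 and 35.5 (2.56). Hes1, a target of Notch, was at 282 and 230 against 94 and 74.9 (1.57), and Gimap5 and Laptm5, genes of lymphocyte survival and of lysosomes, had log2 fold changes of 1.72 and 1.48. Il22 (2.86) rested on few cells, as 1 cell held 33.0% and 43.3% of its UMIs in IgA plasma cells.

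Rnase2b, a secreted ribonuclease, had 90 and 300 UMIs in IgA plasma cells, in 35 and 62 cells, and 0 and 0 in IgG plasma cells, so it was at least 1.38-fold and at least 10.1-fold higher in the respective libraries against a limit of 3 counts per library. Lower in IgA plasma cells were Cxcr3, a receptor of inflammatory homing, at 4.02 and 2.71 against 39.9 and 21.6 (-3.17), Pld4, an endosomal nuclease, at 26.7 and 17.2 against 114 and 92.6 (-2.29), and Ovol3, Apoc2 and Cd36 (-5.01, -3.81 and -6.47), each with at most 70 UMIs in any of the 4 sums and Cd36 with 1 and 1 in IgA plasma cells.

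**Figure D4:**
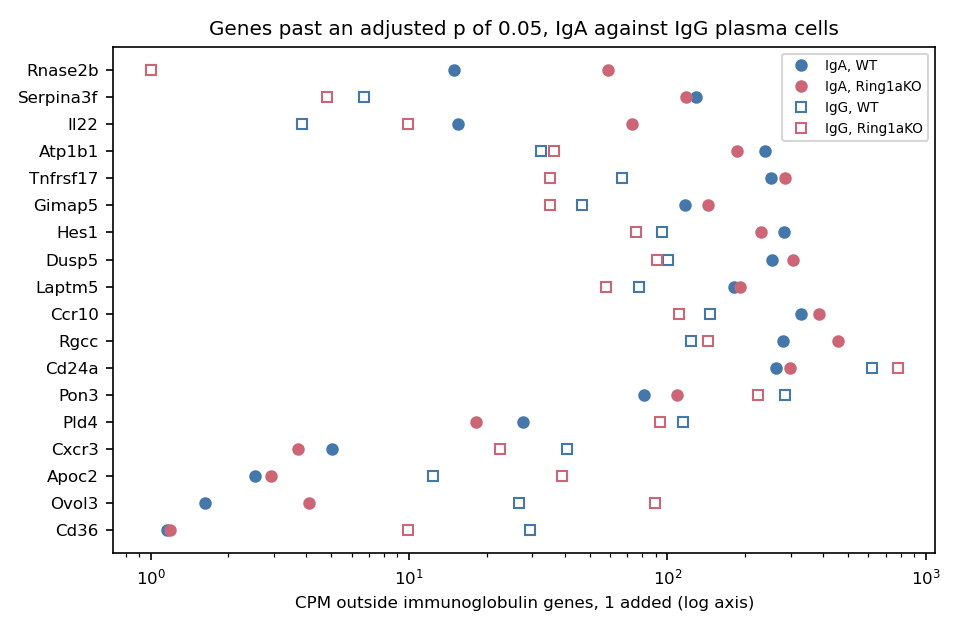
Level of the 18 genes outside immunoglobulin genes with an edgeR adjusted p under 0.05 in IgA (filled circles) and IgG (open squares) plasma cells of each library, as CPM outside immunoglobulin genes with 1 added (log axis). In each gene both IgA values lie on the same side of both IgG values, but the genes were chosen on these sums. Rnase2b was at 0 in IgG plasma cells of both libraries.

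In the lists of genes, the called members were Tnfrsf17 of 14 survival genes and, of 17 homing genes, Ccr10 (higher) and Cxcr3 (lower). The lists for the ER, transcription factors, antigen presentation, effector molecules, cell cycle, polycomb, interferon response, MHC class I, immediate-early response and the mitochondrial genome had 0 called genes. Their median log2 fold changes ranged from -1.31 for 16 cell cycle genes to 0.62 for the immediate-early response, with -0.29 for 21 ER chaperones and folding enzymes, 0.92 for the homing genes and 0.01 for all genes tested. No member of the B cell marker list was called.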

How the data were processed

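The deposited files held unfiltered UMI counts per gene and barcode, made by the authors with Cell Ranger and not normalized. The sources name different versions: the paper Cell Ranger 3.0.1 on mm10, the submitters' processing notes Cell Ranger 6.0.2 on mm39, and the matrix headers format 4. Coordinates here are those of GENCODE vM21 on GRCm38, matched by gene ID, and promoter sequences those of RefSeq for GRCm38. The labels name the 3′ kit as version 3 and the paper as version 3.1, and the paper gives an age of 8 to 12 weeks. The libraries labelled WT and Ring1aKO held 74414511 and 81862096 UMIs over 32228 genes. IgA plasma cells held 15604959 and 15888640 of them.

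Members and gene lists were chosen with earlier results of these data known. B cells and T cells had at least 3 UMIs of their markers and fewer than 10 of the plasma cell genes, B cells without Csf1r and Cd3e, and T cells without Csf1r and Cd79a. For each class the UMIs of its cells were added up, and log2 ratios set Ring1aKO over WT after adding 1 UMI to both sums. Genes with under 100 UMIs in the libraries together were left out. Intervals are exact at 95%, Poisson for levels, Clopper-Pearson for shares and conditional on the counts for ratios of levels, and those of ratios of shares are on the log scale. PCR duplicates were collapsed by UMI, and the intervals cover counting error only. For shares of cells with a UMI, each cell was thinned to 2000 UMIs. Barcodes under 100 UMIs stood for cell-free RNA. Doublets were not called.

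The genes named are the markers, the members of the lists, the 10 genes with the highest and the 10 with the lowest ratio among genes that had 100 UMIs in all and reached 100 CPM in a library (immunoglobulin and T cell receptor genes left out), the genes past an adjusted p of 0.05 between IgA and IgG plasma cells with at least 100 CPM in either class and the same direction in both libraries, and the 5 light-chain and 5 heavy-chain V genes called in most members. IgA and IgG sums were compared with the edgeR 4.0.16 quasi-likelihood test with TMM scaling, in R 4.3.3, with DESeq2 1.42.0 as an alternative. The fit was tested on data simulated without a difference between the libraries, of which the report gives the share recovered over 9766 genes. The other steps ran in Python 3.11.15 (numpy 2.4.6, pandas 2.3.3, scipy 1.17.1).

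Alternatives covered the depth limit, the lineage filter, the scale, thinning, subtraction of the cell-free profile, the isotype limit, cycling cells, the UMI minimum, the added count, and the normalization, filter and covariate of the IgA and IgG comparison. A V gene call at 20 UMIs and thinned V gene counts were added after the data were seen. Some genes of the lists are not reported here by name. Experiments other than the single-cell libraries were not analysed here.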

Additional observations from a re-analysis of the deposited data

Results flagged for a closer look

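Slpi was marked because its difference between the libraries had opposite directions in classes of the same contrast. The log2 ratio of Ring1aKO over WT was 0.87 in IgA plasma cells and -0.54 in B cells, as CPM of UMIs outside immunoglobulin genes. S100a8 and S100a9 had ratios of 2.75 and 2.67 in IgA plasma cells and of -0.42 and -0.40 in T cells. With 1 library per genotype these differences between classes were not tested, and the values of S100a8 and S100a9 rest on few cells, as given above.

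Igha appeared outside the cells that the report compares. Barcodes with fewer than 100 UMIs had 6.95% of their UMIs in Igha in the WT-labelled library and 5.84% in the Ring1aKO-labelled one, against 16.1% and 18.5% in IgA plasma cells.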

How the results depend on the processing

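Between the genotypes, no paired analysis was possible because each has 1 library, which also leaves no replicate to leave out. For the share of kept cells (log2 ratio -0.64), a minimum of 5000 UMIs gave -0.33 and the strict lineage filter, which drops members with at least 3 UMIs of another cell type's markers (Epcam left out), -1.06. For the share of B-lineage cells (-1.39) they gave -1.06 and -1.83. The other 8 alternatives kept both values. All 10 kept the IgA share of plasma cells. Igha (0.20) was reversed as a share of heavy-chain UMIs (-0.0066). It was 0.16 as a mean over cells, 0.16 thinned, 0.21 with the cell-free profile subtracted, 0.20 above 90% of 1 isotype, 0.21 under the strict filter and 0.18 without cycling cells. Counting error is so small for Igha that any of these moves exceeds it.

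Genes at or above a ratio of 1 (53 as CPM of all UMIs) were 0.694% of 7634. They numbered 106 as a mean over cells (1.36%), 10 of 1031 thinned (0.970%), 16 under the strict filter (0.253%), 115 of 10184 with 30 UMIs (1.13%) and 19 of 4374 with 300 (0.434%). Genes at or below -1 (654, 8.57%) numbered 141 outside immunoglobulin genes (1.87%), 67 thinned (6.5%), 1058 with 30 UMIs (10.4%) and 311 with 300 (7.11%). Relative to the median of all genes, which was -0.38 as CPM of all UMIs, -0.32 as a mean over cells and -0.27 thinned, ER chaperones were at -0.04, at -0.13 as a mean over cells and at -0.22 thinned. The B cell surface list (0.59) was at 0.78, 0.49 and, under the strict filter, 0.47. Effector molecules (0.52 over 8 genes) were at 1.44 as a mean over cells (9 genes) and 2.07 thinned (1 gene). They were at 0.43 with the cell-free profile subtracted (2 genes) and 0.69 under the strict filter (5 genes). The cell cycle (-0.11) was at -0.61 under the strict filter. All 180 values for named genes kept their direction. Under the strict filter H2-Aa (0.81) fell to 0.29, S100a8 (2.41) to 0.17 and S100a9 (2.32) to 0.36. With the cell-free profile subtracted they were at 2.51, 10.2 and 11.0, the last pair against 0 UMIs left in the WT-labelled library, so neither is a measured fold.

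Between IgA and IgG plasma cells (11 higher, 7 lower), DESeq2 called 25 higher and 10 lower, of which 13 were shared, and DESeq2 size factors in edgeR 29 and 21. Library totals gave 37 and 248, no filter 185 and 95, cells above 90% of 1 isotype 199 and 137, and the strict filter 87 and 61. Scaling without immunoglobulin genes kept 13 of the 18, with Ccr10, Rgcc and Cd24a at an adjusted p of 0.0502 and Pon3 at 0.0566. No library term left 1 and 0. With a single library, on library totals and with no test, the log2 fold changes ranged from 1.07 to 1.16 for Dusp5 (1.54), 0.91 to 1.20 for Ccr10 (1.48), 0.93 to 1.09 for Rgcc (1.43), -1.97 to -1.49 for Cd24a (-1.35) and -2.08 to -1.64 for Pon3 (-1.46). The causes were not tested. In all, 927 genes had an unadjusted p under 0.05. The V gene pair Igkv6-20 with Ighv6-6 (18.4%) was at 28.0% with 20 UMIs and 26.1% thinned. Depth limits V gene calls.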
